A study of Mus musculus with 23 samples.

Results

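The comparison described here set whole jejunum on the last day of an oral egg white challenge against jejunum of untreated mice. It used every library labelled challenge day 5 (2 Cpa3+/+ and 3 Cpa3Cre/+) and every library labelled naive (3 Cpa3+/+ and 2 Cpa3Cre/+), which are 10 of the 23 libraries in the series, with genotype taken into account. Cpa3+/+ mice were wild type, and Cpa3Cre/+ mice, which carry Cre at the mast cell carboxypeptidase locus, were described by the submitters as mast cell-deficient. The naive mice had received nothing. The day 5 mice had been injected intraperitoneally with 25 µg of ovalbumin in 2 mg of alum on days 0 and 14 and had then had the choice of plain water or of water holding 20% egg white and 8% sugar from day 20 to day 24. The comparison therefore spans injection, alum, sugar and egg white together. The 8 female libraries included all 5 of day 5, while Cpa3+/+ naive replicate 3 and Cpa3Cre/+ naive replicate 2 were from males. The labels state neither age nor sampling hour and do not say that replicates came from separate mice, so the tests measure the spread among libraries, which may be technical.

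Ovalbumin is the main protein of egg white, and mice injected with it in alum form IgE against it. Mast cells carry that IgE on the receptor built around Fcer1a, and when egg white cross-links it they release proteases, histamine and lipid mediators. In the mouse gut the proteases of mucosal mast cells are Mcpt1 and Mcpt2, while Mcpt4, Cma1 and the carboxypeptidase Cpa3 are typical of connective tissue mast cells. Type 2 cytokines such as Il13 act on the epithelium, where tuft and goblet cells become more frequent and genes such as Retnlb are induced.

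Library totals in the 10 libraries ran from 5476308 to 14538525 counts, and 17236 of the 55487 genes in the table were tested. Defining markers of the labelled tissue were present in every library, while the pancreas and liver lists summed to at most 7.662 and 10.69 CPM, the unit of counts scaled to library size in which levels are given. A library stood apart in each state. In Cpa3Cre/+ naive replicate 1 the 20 enterocyte markers summed to 13520 CPM, against 47370 to 103500 CPM in the other 4 naive libraries, and the 14 smooth muscle markers to 10230 CPM, against 1586 to 4376 CPM. In Cpa3Cre/+ day 5 replicate 3 the enterocyte markers summed to 117600 CPM, against 34320 to 57780 CPM in the other 4 day 5 libraries. Values without both of them are given beside genes and lists that moved strongly when they were left out. That fit keeps Cpa3Cre/+ naive replicate 2, from a male, as the sole naive library of its genotype. Per-library values below are in CPM and follow 1 order: for naive, Cpa3+/+ replicates 1, 2 and 3 and then Cpa3Cre/+ replicates 1 and 2, and for day 5, Cpa3+/+ replicates 1 and 2 and then Cpa3Cre/+ replicates 1, 2 and 3.

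Few genes differed between day 5 and naive jejunum beyond the spread of the libraries. By edgeR's quasi-likelihood test with Benjamini-Hochberg adjustment over all genes at a threshold of 0.05, 3 genes rose (0.0174% of those tested) and 4 fell (0.0232%), which makes 7 in all (0.0406%). At an unadjusted p under 0.05, 849 were higher (4.93%) and 1517 lower (8.8%). The genes that rose were the mucosal mast cell proteases Mcpt1 and Mcpt2 and the long noncoding RNA Gm15675. Among the genes that fell were Wnk2, a kinase of the WNK family, Ints1, a subunit of the Integrator complex that processes nascent transcripts, and the processed pseudogene Gm10060. DESeq2 with the same design called 117 genes higher (0.679%) and 169 lower (0.981%), among them all 7 of edgeR. The edgeR calls rested on single libraries: all 7 were lost without Cpa3+/+ naive replicate 1 or 2, Cpa3+/+ day 5 replicate 2, Cpa3Cre/+ naive replicate 1 or Cpa3Cre/+ day 5 replicate 1 or 2, and 2 (Mcpt1 and Mcpt2) were kept without Cpa3+/+ day 5 replicate 1. All 7 were kept without each of the other 3 libraries, and without both libraries that stood apart, where 202 genes were called higher and 672 lower. Without the sex term 4 of the 7 (Mcpt1, Mcpt2, Gm15675 and Gm10060) were kept, and Ints1 and Wnk2 were lost. A fit on the 10 libraries alone with genotype as the covariate called 0 genes, with 1097 at an unadjusted p under 0.05. In 220 genes (1.28%) all 5 day 5 libraries lay above all 5 naive libraries, and in 104 (0.603%) all 5 lay below. The median log2 fold change over all tested genes was −0.016, and 48.4% of the values were positive.

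The mast cell proteases Mcpt1 and Mcpt2 had the largest log2 fold changes among the 7 genes called by edgeR. Mcpt1 (chromosome 14, 56017971 to 56020384, GRCm38) stood at 8.10, 12.8, 28, 10.1 and 6.34 CPM in the naive libraries and at 59.6, 397, 44.6, 67.9 and 53.8 CPM on day 5. Every day 5 library lay above every naive one, and Cpa3+/+ day 5 replicate 2 lay far above the rest. The log2 fold change was 3.51 ± 0.55 (standard error, n = 5 and 5, edgeR adjusted p = 0.0351). Mcpt2 (chromosome 14, 56042041 to 56044642) stood at 3.97, 6.08, 10.9, 4.78 and 1.71 CPM in naive jejunum and at 24.0, 137, 19.9, 31.1 and 19.4 CPM on day 5, again without overlap (3.34 ± 0.57, edgeR adjusted p = 0.0438). These proteases are close relatives, so reads may be shared between them. In bulk tissue, more mast cells and more transcript per cell cannot be told apart.

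Both proteases were also higher on day 5 in the mice described as mast cell-deficient. In Cpa3Cre/+ libraries the log2 fold change of Mcpt1 was 2.95 ± 0.76, and in Cpa3+/+ libraries it was 4.07 ± 0.71. The difference of the 2 changes did not pass (−1.12 ± 0.93, edgeR adjusted p = 0.587), which does not show that the genotypes acted alike. For Mcpt2 the genotypes gave 2.98 and 3.69.

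No other mast cell gene passed edgeR's threshold. Mcpt4 stood at 0.165, 0.0966, 1.20, 0.488 and 0.302 CPM in naive libraries and at 2.01, 12.4, 1.49, 1.91 and 2.54 CPM on day 5, which gave 3.29 ± 0.71 on the log2 scale (edgeR adjusted p = 0.0998). Its groups did not overlap, with Cpa3+/+ naive replicate 3 nearest to the day 5 libraries. Cpa3 itself stood at 0.827, 0.966, 1.84, 1.07 and 0.101 CPM against 4.02, 22.1, 1.34, 1.51 and 1.51 CPM (2.21 ± 0.60, edgeR adjusted p = 0.152). Single libraries carried much of that value of Cpa3, which was 1.38 without Cpa3+/+ day 5 replicate 2, 3.63 without Cpa3Cre/+ naive replicate 1 and 3.62 without both libraries that stood apart. Only the Cpa3+/+ day 5 libraries lay above all naive ones, since Cpa3+/+ naive replicate 3 exceeded the 3 Cpa3Cre/+ day 5 libraries. Fcer1a, the ligand-binding chain of the IgE receptor, stood at 0.331, 0.579, 0.559, 0.195 and 0.403 CPM against 1.69, 6.61, 0.744, 0.874 and 0.753 CPM, with no overlap (2.49 ± 0.63, edgeR adjusted p = 0.133). Kit, the stem cell factor receptor that interstitial cells of Cajal also carry, stood at 33.7, 20.9, 12.6, 32.5 and 14.0 CPM against 31.3, 30.5, 22.3, 21.3 and 9.60 CPM, with full overlap (−0.05 ± 0.27, and 0.48 without the libraries that stood apart).

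**Figure D1:**
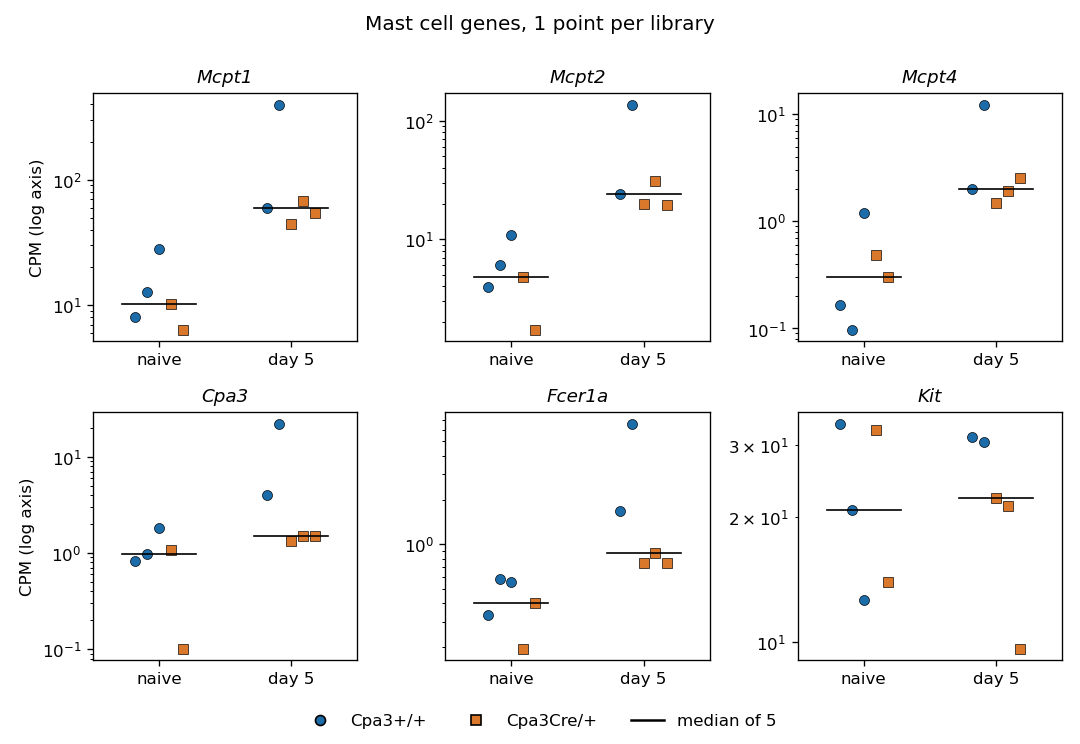
CPM on a log axis of 6 mast cell genes in the 5 naive and the 5 day 5 libraries, with circles for Cpa3+/+, squares for Cpa3Cre/+ and a bar at the median of each 5. Mcpt1, Mcpt2, Mcpt4 and Fcer1a show no overlap between the states, and Cpa3+/+ day 5 replicate 2 is the highest point for each of them and for Cpa3.

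Of 10 mast cell protease genes 9 were tested, 8 had positive values and 2 were called higher by edgeR (6 by DESeq2), with a median log2 fold change of 2.21 against −0.016 over all genes. Of all genes 0.0174% were called higher by edgeR and 0.679% by DESeq2. The list's median was 3.62 without the 2 libraries that stood apart. By genotype it was 3.49 in Cpa3+/+ and 1.19 in Cpa3Cre/+. The tryptase genes gave 0.14 for Tpsb2 and −0.10 for Tpsg1, and Tpsab1 was too low to test. Of 15 other mast cell and basophil genes 11 were tested, 7 had positive and 4 negative values, and none passed edgeR. Their median was 0.62, and 1.21 without the libraries that stood apart. DESeq2 called 4 of them higher, which were Cpa3, Fcer1a, the beta chain of the IgE receptor Ms4a2 (2.33 ± 0.71) and Tph1, the first enzyme of serotonin synthesis outside neurons (1.5 ± 0.35).

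Cytokines of type 2 immunity were near the limit of these libraries. Raw counts of Il13 summed to 0 over the naive libraries and to 16 over the day 5 libraries, at least 4.09-fold higher in CPM when the naive sum is set to a floor of 3 counts. Il4 had 4 counts in naive and 17 in day 5 libraries, and the epithelial cytokine Il25 had 0 and 4. Transcripts of the IgE heavy chain, Ighe, summed to 1 count in naive libraries and 44 in day 5 libraries, of which Cpa3Cre/+ day 5 replicate 1 gave 0. Intervals and floors of this kind cover counting error only. Ccr3, the eotaxin receptor of eosinophils, stood at 1.16, 0.869, 0.319, 0.780 and 0.201 CPM against 2.58, 6.61, 4.99, 3.42 and 0.0941 CPM. Its day 5 values lay above all naive ones apart from Cpa3Cre/+ day 5 replicate 3, which was the lowest of the 10 (2.54 ± 0.68, edgeR adjusted p = 0.152). None of the 10 tested eosinophil and type 2 lymphoid genes passed edgeR. Their median was 0.38, and 0.96 without the libraries that stood apart.

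Epithelial genes that type 2 cytokines induce were very high in some day 5 libraries and not in others. Pla2g4c, a cytosolic phospholipase, stood at 2.81, 2.41, 52.5, 2.34 and 149 CPM in naive libraries and at 4.51, 77.3, 1045, 969 and 112 CPM on day 5 (3.09 ± 1.95, edgeR adjusted p = 0.508). The value of Pla2g4c was 1.87 without the libraries that stood apart, 6.13 among females only and 2.14 without the sex term. Gsdmc2, of the pore-forming gasdermin C family, stood at 6.61, 2.12, 18.2, 1.27 and 65.0 CPM against 15.5, 53, 391, 515 and 60.8 CPM (2.85 ± 1.53, edgeR adjusted p = 0.428). For both genes Cpa3Cre/+ day 5 replicates 1 and 2 lay highest, and the 2 naive libraries from males lay above the other naive libraries. Gsdmc3 and Gsdmc4 showed the same order, and near-identical members of that family may share reads. The goblet cell product Retnlb was close to 0 in most libraries and reached 5.66 and 6.91 CPM only in Cpa3Cre/+ day 5 replicates 1 and 2.

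St3gal4, a sialyltransferase of surface glycans, stood at 5.29, 6.47, 9.66, 14.6 and 25.8 CPM against 5.79, 21.2, 135, 142 and 73.2 CPM. The 3 Cpa3Cre/+ day 5 libraries lay above all others, while both Cpa3+/+ day 5 libraries lay within the naive range (1.67 ± 0.43, edgeR adjusted p = 0.14, DESeq2 adjusted p = 0.00924). Ang4, an antimicrobial ribonuclease of Paneth and goblet cells, stood at 183, 83.0, 31.7, 88.7 and 59.9 CPM against 287, 614, 1084, 705 and 90.4 CPM. All day 5 libraries except Cpa3Cre/+ replicate 3 exceeded the naive range (2.52 ± 0.62, edgeR adjusted p = 0.133). The pentraxins Mptx1 and Mptx2 gave 1.38 ± 0.41 and 1.76 ± 0.57, and the lipase relative Pnliprp2 gave 2.00 ± 0.48, none of which passed edgeR, while DESeq2 called all 3.

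Of 20 genes of the type 2 epithelial response 15 were tested, 12 had positive values, none passed edgeR and 3 were called higher by DESeq2 (Mptx1, Sprr2a3 and St3gal4). DESeq2 called 0.679% of all genes higher. The list's median was 1.67 and its summed level ran from 508.3 to 1845 CPM in naive and from 1361 to 5352 CPM in day 5 libraries. The median was 1.59 without the libraries that stood apart and 2.12 among females only. Of 13 tested tuft cell genes 9 had positive values, with a median of 0.97. The leukotriene enzyme Alox5 stood at 2.31, 2.51, 2.47, 2.83 and 2.21 CPM against 1.93, 8.88, 9.08, 9.05 and 3.86 CPM (1.37 ± 0.38, edgeR adjusted p = 0.152). The taste-pathway channel Trpm5 stood at 4.63, 11.1, 8.94, 4.49 and 7.75 CPM against 3.46, 17.4, 17.5, 21.3 and 15.6 CPM (1.02 ± 0.37). For both genes, and for the tuft cell regulator Pou2f3 (1.16 ± 0.39) and the actin-binding Avil (0.97 ± 0.36), Cpa3+/+ day 5 replicate 1 was the lowest of all 10 libraries and the other 4 day 5 libraries lay above every naive one.

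Gm15675 (chromosome 1, 130429781 to 130437191, minus strand) stood at 4.46, 5.79, 5.27, 4.10 and 4.73 CPM in naive libraries and at 10.6, 11.2, 51.4, 68.8 and 16.5 CPM on day 5. The naive libraries lay close together and every day 5 library was above them, most of all Cpa3Cre/+ replicates 1 and 2 (2.11 ± 0.35, edgeR adjusted p = 0.0435). It lies 1835 bases beyond the 3′ end of Cd55 (chromosome 1, 130439027 to 130462744), on the same strand. Cd55, which encodes the membrane inhibitor of complement also called decay accelerating factor, stood at 22.7, 34.6, 42.1, 17.4 and 59.4 CPM against 44.2, 48.1, 180, 196 and 154 CPM. The same 2 libraries were highest, followed by Cpa3Cre/+ day 5 replicate 3, and both Cpa3+/+ day 5 libraries lay below the highest naive library (1.38 ± 0.41, edgeR adjusted p = 0.181, DESeq2 adjusted p = 0.0314). Cd55 was at 0.86 without the libraries that stood apart. Whether reads of Cd55 that run past its annotated end were counted for Gm15675 was not tested.

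**Figure D2:**
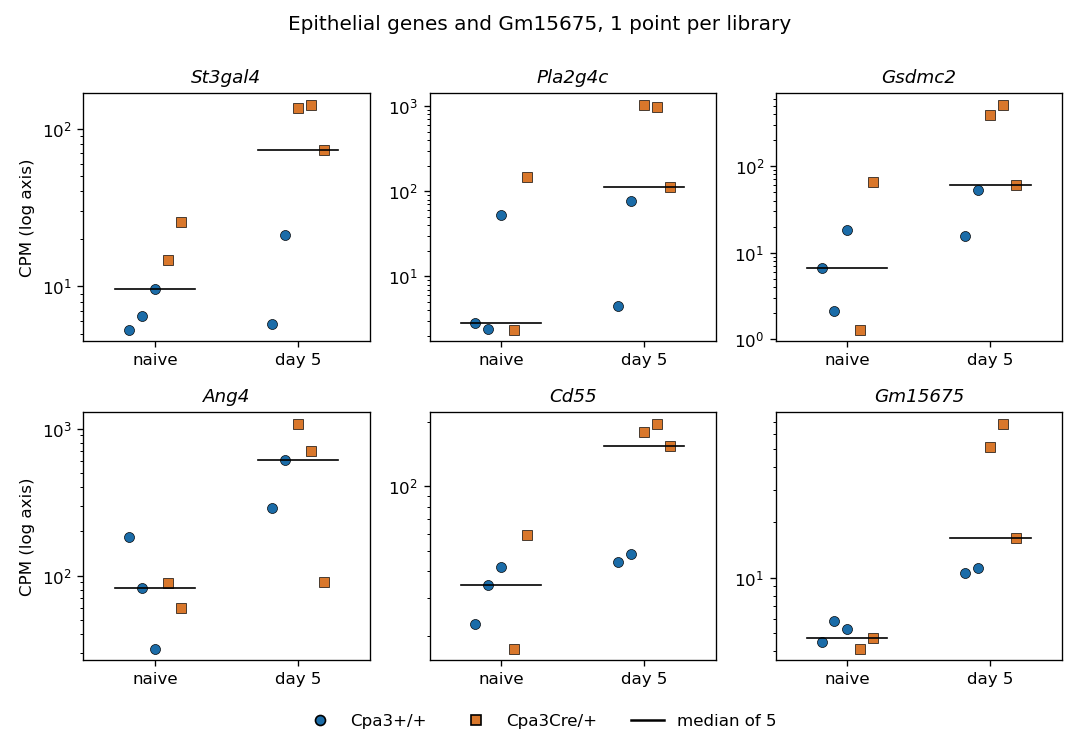
CPM on a log axis of 5 epithelial genes and Gm15675 in the 5 naive and the 5 day 5 libraries, with circles for Cpa3+/+, squares for Cpa3Cre/+ and a bar at the median of each 5. Only Gm15675 shows no overlap between naive and day 5, and the highest points of St3gal4, Pla2g4c, Gsdmc2, Ang4, Cd55 and Gm15675 are all Cpa3Cre/+ day 5 libraries.

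Among genes of the circadian clock the states did not overlap in 4 of 10 repressors and in 5 of 10 activators and output factors. Over all tested genes 1.28% lay apart and higher on day 5 and 0.603% apart and lower. The activators Arntl and Clock or Npas2 switch on genes with E-boxes, among them the repressors of the Per and Cry families, Nr1d1 and Nr1d2 and the output factors Dbp, Tef and Hlf. The output factors activate genes through D-boxes and Nfil3 represses through the same site, while Nr1d1 and Nr1d2 repress Arntl and Nfil3. In the 300 bases around the start site (250 before and 50 after), 7.15% of the 32851 mouse promoters of RefSeq (GRCm38.p6) held the E-box CACGTG and 3.99% held a D-box, TTATGNAA or TTACGNAA, on either strand. Of the 9 promoters matched to clock repressors 4 held an E-box and 2 a D-box, and of the 13 matched to activators and output factors 2 held an E-box and 0 a D-box. Those 2 are both starts of Tef. Dbp, Hlf, Nr1d1 and Nr1d2, which also have negative values below, held no match, and Cry1, with a positive value below, held an E-box. A match in letters is a description of the window, not a measured site. The promoters of Per3, of Ciart and of 1 of the 2 starts of Tef are shown because these genes have negative values below and hold such matches, in capitals, which are D-boxes in Per3 and E-boxes in Ciart and Tef.
Per3 (chr4:151044616-151044915, minus strand): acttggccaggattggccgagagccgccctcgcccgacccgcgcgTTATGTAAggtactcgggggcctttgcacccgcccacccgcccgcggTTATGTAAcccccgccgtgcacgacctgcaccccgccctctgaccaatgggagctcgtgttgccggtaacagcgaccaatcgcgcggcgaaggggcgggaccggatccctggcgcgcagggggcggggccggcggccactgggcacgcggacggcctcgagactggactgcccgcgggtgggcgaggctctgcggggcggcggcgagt
Ciart (chr3:95882179-95882478, minus strand): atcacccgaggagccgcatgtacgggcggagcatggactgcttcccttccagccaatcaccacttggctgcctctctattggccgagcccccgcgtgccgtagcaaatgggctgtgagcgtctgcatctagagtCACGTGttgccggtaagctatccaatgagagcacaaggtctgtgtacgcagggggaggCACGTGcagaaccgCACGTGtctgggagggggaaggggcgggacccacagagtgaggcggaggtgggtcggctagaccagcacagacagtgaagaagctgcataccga
Tef (chr15:81811164-81811463, plus strand): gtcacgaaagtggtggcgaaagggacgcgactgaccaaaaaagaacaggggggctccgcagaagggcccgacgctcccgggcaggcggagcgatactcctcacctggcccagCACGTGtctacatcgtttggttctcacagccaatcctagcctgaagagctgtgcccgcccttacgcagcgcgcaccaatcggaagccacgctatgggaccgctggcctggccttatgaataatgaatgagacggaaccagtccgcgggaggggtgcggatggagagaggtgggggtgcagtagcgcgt

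Of 10 clock activators and output factors 7 had negative and 3 positive values, with a median of −0.30, and none passed edgeR. The output factors Dbp, Hlf and Tef were low on day 5. Dbp stood at 70.4, 115, 86.6, 53.2 and 76.7 CPM in naive libraries and at 4.91, 8.62, 20.8, 6.59 and 40.9 CPM on day 5. All 5 day 5 libraries lay below all naive ones, with Cpa3Cre/+ replicate 3 nearest to them (−2.50 ± 0.53, edgeR adjusted p = 0.0959, DESeq2 adjusted p = 0.000883). Hlf stood at 21.0, 30.9, 24.7, 19.8 and 15.6 CPM against 3.30, 5.01, 10.5, 5.88 and 10.3 CPM, with no overlap (−1.84 ± 0.35, edgeR adjusted p = 0.067). Tef stood at 76.2, 145, 108, 83.8 and 75.9 CPM against 18.6, 23.2, 50.2, 26.1 and 51.8 CPM, also with no overlap (−1.65 ± 0.38, edgeR adjusted p = 0.127). The competing repressor Nfil3 lay the other way, at 5.13, 4.15, 7.50, 4.0 and 6.24 CPM in naive and 13.4, 13.6, 18.5, 20.0 and 28.7 CPM in day 5 libraries, with no overlap (1.73 ± 0.36, edgeR adjusted p = 0.0959). Arntl, the activator, stood at 22.5, 12.4, 18.9, 19.9 and 19.1 CPM against 51.8, 39.2, 32.6, 45.0 and 43.8 CPM, with no overlap (1.15 ± 0.29, edgeR adjusted p = 0.134). Clock itself, the partner of Arntl, was at −0.02 ± 0.21, with overlapping groups. DESeq2 called Dbp, Hlf, Tef, Nfil3 and Arntl, and edgeR called none of them.

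The repressors were lower too, without a call by edgeR. Per3 stood at 22.0, 66.4, 31.7, 26.6 and 15.1 CPM in naive libraries and at 5.47, 8.08, 11.5, 6.51 and 8.47 CPM on day 5 (−1.97 ± 0.42, edgeR adjusted p = 0.0959). Nr1d2 stood at 99.2, 160, 119, 112 and 95 CPM against 51.7, 37.9, 75.2, 50.2 and 68.2 CPM (−1.13 ± 0.28, edgeR adjusted p = 0.133). Neither gene overlapped between the states, nor did Per1 (−1.79 ± 0.58) or Cry2 (−0.64 ± 0.39). Nr1d1, the most abundant repressor in the list, stood at 144, 181, 101, 88.8 and 172 CPM against 41.0, 59.1, 97.7, 55.4 and 154 CPM and did overlap (−0.91 ± 0.29, edgeR adjusted p = 0.193). Without the libraries that stood apart Nr1d1 was at −1.46. Ciart overlapped as well, through Cpa3Cre/+ naive replicate 2 at 1.51 CPM and Cpa3Cre/+ day 5 replicate 3 at 1.79 CPM (−2.33 ± 0.88). Of the 10 repressors 9 had negative values, with a median of −1.02, and Cry1 was the exception (0.28 ± 0.22). The groups did not overlap in 4 of the 10, against 0.603% of all genes, and DESeq2 called 2 lower, against 0.981%. The median was −1.07 without the libraries that stood apart. It was −1.51 in Cpa3+/+ and −0.64 in Cpa3Cre/+ mice, a difference that was not tested over the list. Time of day was not given in the labels, so a difference in sampling time cannot be told apart from the difference between the states.

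**Figure D3:**
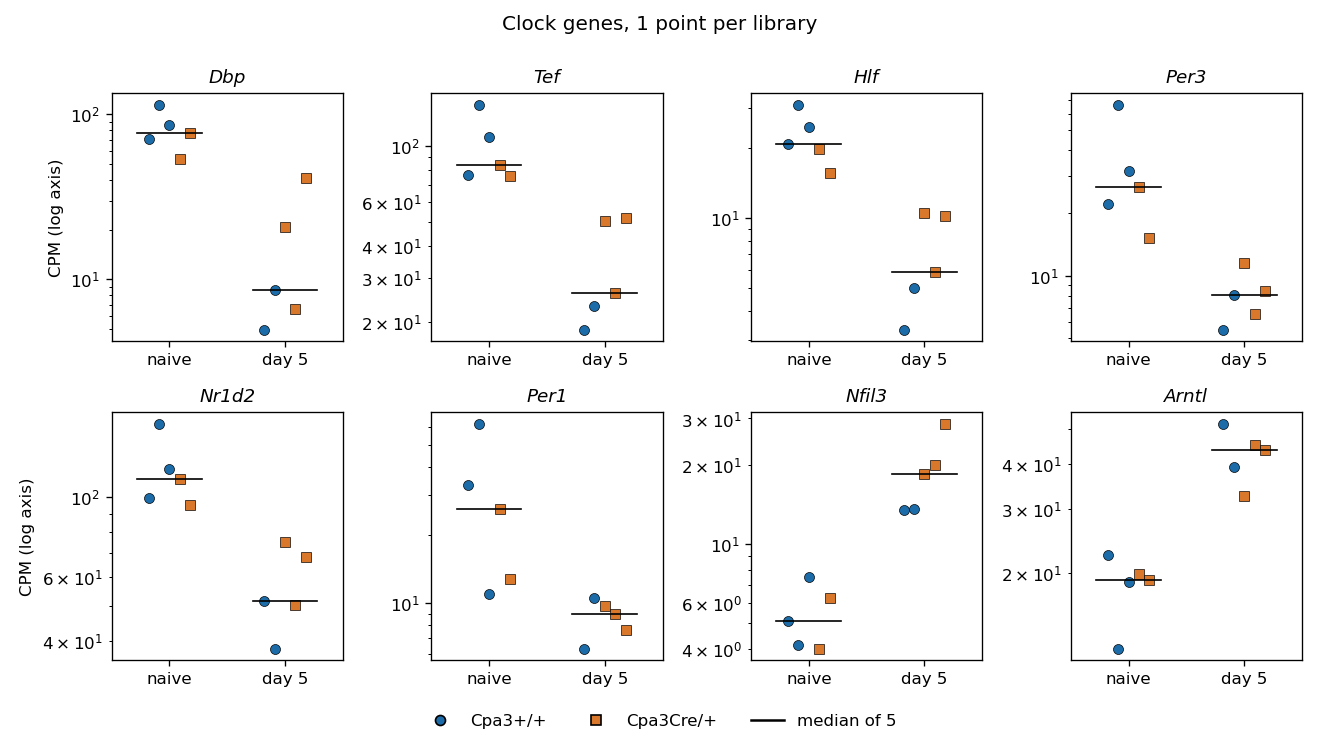
CPM on a log axis of 8 clock genes in the 5 naive and the 5 day 5 libraries, with circles for Cpa3+/+, squares for Cpa3Cre/+ and a bar at the median of each 5. Dbp, Tef, Hlf, Per3, Nr1d2 and Per1 are lower and Nfil3 and Arntl higher on day 5 with no overlap, and Cpa3Cre/+ day 5 replicates 1 and 3 (20.8 and 40.9 CPM of Dbp) are the day 5 libraries nearest to naive for Dbp, Tef, Hlf, Per3 and Nr1d2.

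Chaperones of the heat shock response gave positive values in 14 of 15 tested members, with a median of 0.60, and none passed edgeR. DESeq2 called 4 higher, against 0.679% of all genes. They were the constitutive Hsp70 gene Hspa8 (0.72 ± 0.24), the Hsp90 gene Hsp90ab1 (0.49 ± 0.19), the mitochondrial chaperonin Hspd1 (0.60 ± 0.20) and the co-chaperone Dnajb1. Hspd1 stood at 405, 385, 515, 442 and 434 CPM in naive libraries and at 660, 712, 630, 718 and 461 CPM on day 5. Cpa3Cre/+ day 5 replicate 3 was the only day 5 library within the naive range. Dnajb1 stood at 34.2, 32.8, 38.9, 30.5 and 43.1 CPM against 36.3, 54.2, 57.8, 57.9 and 56.8 CPM, where Cpa3+/+ day 5 replicate 1 was the one within it (0.59 ± 0.14, edgeR adjusted p = 0.131). The inducible genes Hspa1a and Hspa1b, near-identical copies that may share reads, gave 1.91 ± 0.64 and 2.18 ± 0.74. Their naive levels were at most 6.04 CPM, and the day 5 levels reached 16.8 and 26.1 CPM in Cpa3Cre/+ replicate 2 and were 1.51 and 2.26 CPM in Cpa3Cre/+ replicate 3. Cacybp, which encodes the calcyclin-binding protein, stood at 42.8, 37.7, 51.9, 50.4 and 49.6 CPM against 64.1, 85.1, 75.6, 87.3 and 67.5 CPM with no overlap (0.75 ± 0.16, edgeR adjusted p = 0.0959). Among other higher genes of small p, the nuclear factor Akirin2 gave 0.49 ± 0.12 and AC117239.2 gave 0.81 ± 0.19, neither past edgeR's threshold.

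The heat shock factor binds inverted repeats of GAA. Runs of 3 alternating GAA and TTC units with 2 free bases between neighbours, which may begin with either unit and overlap each other, were found on either strand in 5 of the 17 promoters matched to heat shock genes (29.4%) and in 0.603% of all promoters. These 5 windows hold 3 separate stretches, since the facing windows of Hspd1 and Hspe1 share one and both windows of Hsph1 share another, so the share counts some stretches more than once. Those of Chordc1, an Hsp90 cochaperone (0.84 ± 0.26), and of 1 start of Hspd1 are shown with the matches in capitals, because in each the overlapping matches merge into 1 run.
Chordc1 (chr9:18292017-18292316, plus strand): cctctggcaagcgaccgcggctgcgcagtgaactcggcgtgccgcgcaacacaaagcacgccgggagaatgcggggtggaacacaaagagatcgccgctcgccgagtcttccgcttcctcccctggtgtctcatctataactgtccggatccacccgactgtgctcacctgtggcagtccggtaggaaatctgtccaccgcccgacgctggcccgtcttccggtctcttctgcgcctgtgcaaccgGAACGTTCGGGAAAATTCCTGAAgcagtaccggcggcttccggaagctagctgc
Hspd1 (chr1:55087883-55088182, minus strand): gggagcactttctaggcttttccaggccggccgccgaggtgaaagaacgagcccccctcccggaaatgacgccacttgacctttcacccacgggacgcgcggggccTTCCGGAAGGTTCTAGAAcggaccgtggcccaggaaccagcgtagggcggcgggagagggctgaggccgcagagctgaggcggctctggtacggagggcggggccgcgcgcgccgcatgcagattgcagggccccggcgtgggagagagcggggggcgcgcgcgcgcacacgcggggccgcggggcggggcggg

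Of 22 genes of endoplasmic reticulum stress 18 had positive values, with a median of 0.35, and none passed edgeR. Asns, which makes asparagine and is a target of the integrated stress response, stood at 21.2, 18.0, 21.4, 18.6 and 21.7 CPM against 36.9, 35.2, 34.2, 24.1 and 27.1 CPM with no overlap (0.69 ± 0.19, edgeR adjusted p = 0.153, DESeq2 adjusted p = 0.0345). The luminal chaperone Hspa5 gave 0.58 ± 0.24.

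Ints1 (chromosome 5, 139751282 to 139775674) was among the genes that fell, at 49.9, 42.8, 27.8, 30.4 and 29.4 CPM in naive libraries against 16.3, 16.1, 15.8, 16.0 and 26.6 CPM on day 5, with no overlap (−1.09 ± 0.18, edgeR adjusted p = 0.0438). Wnk2 (chromosome 13, 49036303 to 49148014) stood at 37.7, 26.6, 19.3, 28 and 18.4 CPM against 15.8, 13.8, 13.1, 12.9 and 12.9 CPM (−0.97 ± 0.16, edgeR adjusted p = 0.0435). In both genes the naive libraries were spread widely, with Cpa3+/+ naive replicate 1 highest, and the day 5 libraries lay close together, apart from Ints1 in Cpa3Cre/+ replicate 3. The pseudogene Gm10060, at 1.98, 2.51, 1.60, 0.878 and 0.403 CPM against 0.161, 0.0668, 0.0744, 0.238 and 0.377 CPM, fell by 2.86 on the log2 scale (standard error 0.44, edgeR adjusted p = 0.0351). Its day 5 levels were near the limit of these libraries. Under the GC and length correction described below Gm10060 was at −2.20 (edgeR adjusted p = 0.213).

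Next in order of p among the lower genes, none of them past the threshold, came the tyrosine kinase Abl1 (−0.74 ± 0.13, edgeR adjusted p = 0.0539), the extracellular matrix gene Hmcn2 (−2.30 ± 0.42), the chromatin gene Rai1 (−1.0 ± 0.19), the Rap1 inhibitor Rap1gap (−0.79 ± 0.15), the microtubule-associated Map1s (−1.63 ± 0.31), the focal adhesion gene Tns2 (−1.04 ± 0.20) and the ubiquitin ligase adaptor Zswim8 (−0.75 ± 0.14). Hmcn2 rested on Cpa3Cre/+ naive replicate 1, which held 139.6 CPM of it, and was at −1.25 without that library, −1.17 without both that stood apart and −1.43 after the GC and length correction described below. Each of these 7 had all 5 day 5 libraries below all naive ones, against 0.603% of all tested genes. They were picked for their small p, so this separation adds no evidence to it. Under the GC and length correction Abl1 was at −0.38, Rai1 and Rap1gap at −0.31, Map1s at −0.97, Tns2 at −0.59 and Zswim8 at −0.21. None of the 7 was called under it. Abl1 stood at 118, 129, 108, 86.0 and 90.8 CPM in naive libraries and at 64.5, 55.1, 61.5, 58.8 and 73.9 CPM on day 5. Of 21 GC-rich nuclear regulators, a list that was drawn up from these same libraries and so gives no independent evidence, all had negative values, 1 was called lower by edgeR and 3 by DESeq2, among them the Wnt coactivator Bcl9l and Ahdc1. Of all genes edgeR called 0.0232% lower and DESeq2 0.981%. The list's median was −0.37.

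The median change ran with GC content over the table, although not in every library. Among the decile of tested genes with the lowest exonic GC content the median log2 fold change was 0.094, and among the decile with the highest it was −0.451. Groups lay apart and lower in 0.116% of the first and in 2.21% of the second. Relative to the mean of the 10 libraries, the median log2 level ran from 0.311 in the lowest decile to −0.471 in the highest in Cpa3+/+ day 5 replicate 1. It ran the other way in Cpa3Cre/+ day 5 replicate 3, from −0.317 to 0.231, and was near level in Cpa3+/+ naive replicate 3, at −0.059 and −0.077. With counts corrected for each library's trend with GC content and length, an alternative added after the data were seen, these medians were 0.065 and −0.045. Ints1 was then at −0.40 and Wnk2 at −0.18, neither was called, and the median of the nuclear regulators was 0.00. Mcpt1 kept a value of 3.38 under the correction (edgeR adjusted p = 0.108). What made libraries differ in this trend was not tested.

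**Figure D4:**
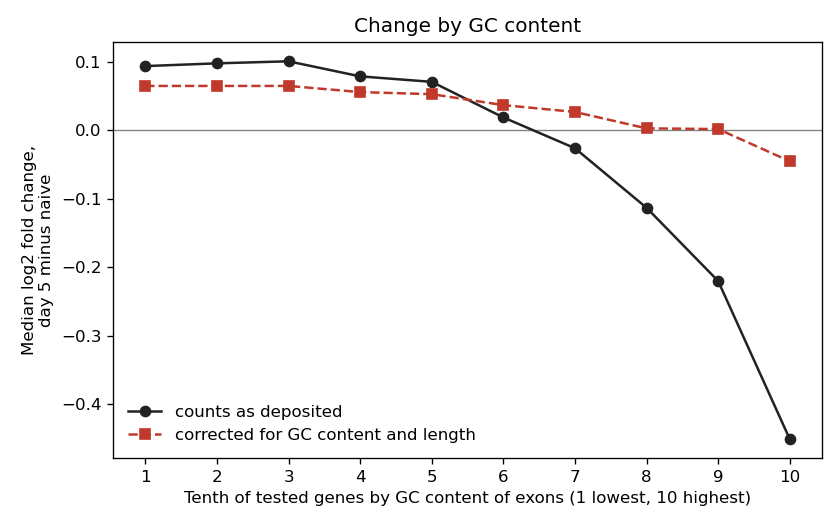
Median log2 fold change of day 5 minus naive in deciles of the tested genes ordered by exonic GC content, from the counts as deposited (circles) and after correction for GC content and length (squares). The line of the deposited counts runs from 0.094 in the lowest decile to −0.451 in the highest, and the corrected line from 0.065 to −0.045.

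None of 22 cholesterol synthesis genes passed edgeR, and 16 had negative values. Srebf2, the transcription factor that drives cholesterol synthesis, stood at 139, 125, 91.6, 92.3 and 92.1 CPM in naive libraries and at 67.8, 74.1, 63.4, 58.1 and 79.2 CPM on day 5 (−0.67 ± 0.14, edgeR adjusted p = 0.0959). Its groups did not overlap. Of 22 list members 2 showed no overlap and 2 were called by DESeq2, Srebf2 being one of each. Over all tested genes 0.603% lay apart and lower, and DESeq2 called 0.981% lower. The enzymes of the pathway were close to 0, with Hmgcs1 at −0.12 ± 0.22 and a list median of −0.13.

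Of 172 tested immunoglobulin variable segments, grouped by annotated biotype after their values were seen, 142 had positive values, with a median of 0.80. None was called by edgeR and 11 were called higher by DESeq2, against 0.679% of all genes. In 5 of the 172 (2.91%, against 1.28% of all genes) the groups did not overlap. Segments resemble each other in sequence and may share reads. The constant genes Igha (0.32 ± 0.35) and Igkc (0.62 ± 0.36) overlapped, with Cpa3+/+ day 5 replicate 2 highest at 3944 and 3995 CPM. Without the libraries that stood apart Igha was at 0.93 and Igkc at 1.40. The plasma cell list had a median of 0.49, and of 1.33 without the libraries that stood apart. Of 14 tested complement genes 6 had positive and 8 negative values, with a median of −0.02 (0.60 without those libraries), and none passed edgeR. Complement C3, the central component of the cascade, stood at 55.6, 15.4, 24.3, 77.2 and 26.1 CPM against 185, 114, 197, 75.3 and 83.3 CPM. Of the day 5 libraries, Cpa3Cre/+ replicate 2 alone lay within the naive range, just under Cpa3Cre/+ naive replicate 1 (1.53 ± 0.41, edgeR adjusted p = 0.152, DESeq2 adjusted p = 0.0233).

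Markers of the layers of the gut wall moved with single libraries. All 14 smooth muscle markers had negative values, with a median of −0.59, and the summed level ran from 1586 to 10230 CPM in naive and from 1259 to 4028 CPM in day 5 libraries. The contractile myosin Myh11 stood at 732, 415, 248, 1643 and 374 CPM against 614, 488, 539, 159 and 204 CPM (−0.90 ± 0.37, and −0.11 without the libraries that stood apart). Without the 2 libraries that stood apart the list's median was 0.01. By genotype it was 0.19 in Cpa3+/+ and −1.62 in Cpa3Cre/+ mice. All 16 markers of enteric neurons and glia had negative values as well, with medians of −1.08 over all libraries and −0.60 without those 2. The absorptive enterocyte list had a median of 0.13 over all libraries and −0.63 without them, and its values were 1.02 in Cpa3Cre/+ and −0.62 in Cpa3+/+ mice. No member of these 3 lists was called by edgeR.

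**Figure D5:**
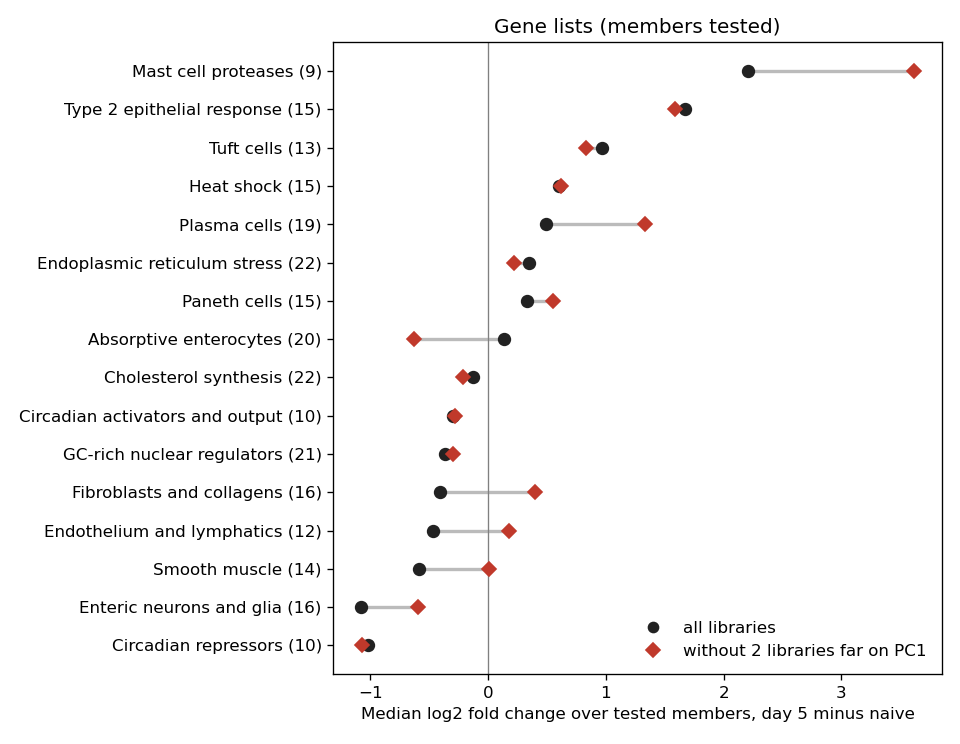
Median log2 fold change of day 5 minus naive over the tested members of 16 gene lists, from all libraries (circles) and without Cpa3Cre/+ naive replicate 1 and Cpa3Cre/+ day 5 replicate 3 (diamonds), with the number of members in parentheses. Mast cell proteases (2.21 and 3.62) and circadian repressors (−1.02 and −1.07) keep their side of 0, while absorptive enterocytes (0.13 and −0.63) and fibroblasts and collagens (−0.41 and 0.40) change sides.

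Pooling the genotypes assumes a shared change, so the difference of their changes was tested. By edgeR no gene passed for a difference between Cpa3Cre/+ and Cpa3+/+ in its change from naive to day 5 (0%), with 2126 genes at an unadjusted p under 0.05. With 2 or 3 libraries in each group, this does not show that the genotypes changed alike. DESeq2 called 3 (0.0174%): the light chain constant gene Iglc3, the homeobox gene Hoxa7 and the acyltransferase Mboat1. Iglc3 stood at 13.6, 15.1, 8.62, 51.8 and 7.75 CPM in naive libraries and at 77.7, 115, 17.1, 11.1 and 11.2 CPM on day 5. Both Cpa3+/+ day 5 libraries were highest, and Cpa3Cre/+ naive replicate 1, the library with low enterocyte markers, came next. Its changes differed by −4.02 ± 0.77 (DESeq2 adjusted p = 0.00321).

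The net change can be set beside its legs, immunized minus naive and day 5 minus immunized, which share libraries with it. For each gene the legs add up to the net change, which medians over lists need not do. Mcpt1 gave 0.37 ± 0.52 for immunization and 3.14 ± 0.54 for challenge, and Mcpt2 gave 0.03 and 3.31, so their values lay in the second leg. Nfil3 gave 1.57 and 0.16, Hlf −1.47 and −0.37 and Arntl 0.96 and 0.18, with the larger value in the first leg, while Dbp gave −0.69 and −1.82. Ccr3 gave 2.68 and −0.14, C3 gave 2.22 and −0.69, and the variable segments had medians of 1.35 and −0.44. The type 2 epithelial list had medians of −0.66 and 2.52. Ints1 gave 0.43 and −1.52. By edgeR 0 genes were called for immunized against naive (1885 at an unadjusted p under 0.05, DESeq2 35) and 334 (1.94%) for day 5 against immunized, of which 96 rose (0.557%) and 238 fell (1.38%), where Mcpt1 (edgeR adjusted p = 0.0105), Mcpt2 (edgeR adjusted p = 0.012) and Ints1 were among them.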

How the data were processed

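RNA was extracted from whole jejunum, without fat and Peyer's patches, and sequenced from stranded Illumina libraries, per the labels' protocols. Reads were aligned with STAR to the mouse genome (mm10, GRCm38) and counted per gene with featureCounts of Subread 1.5.1, as the submitters' processing notes list. The authors deposited 1 table of raw counts, with Ensembl gene identifiers. STAR's version, the strand setting and the annotation used are not given in the sources used here, so overlapping antisense genes cannot be told apart. Symbols and positions came from GENCODE M21 (GRCm38), where 55227 of 55487 gene identifiers matched, and promoters from RefSeq.

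From the counts, edgeR 4.0.16 (R 4.3.3, limma 3.58.1) was used with TMM factors, filterByExpr by group and a robust quasi-likelihood fit of all 23 libraries with 10 group means and sex (12 residual degrees of freedom, biological coefficient of variation 28.6%). Fold changes are the mean over the genotypes of day 5 minus naive, two-sided, with Benjamini-Hochberg adjustment over 17236 genes at 0.05. CPM use TMM library sizes. DESeq2 1.42.0, other normalization and filters, no sex term, females only, a replicate block, the 10 libraries alone and leaving out single libraries were alternatives. On simulated data for day 5 against naive over 17236 genes, 100% of 100 genes changed 4-fold and 33% of 100 changed 2-fold were recovered, with 5 unchanged genes called. The simulation drew every library from a shared profile with a single spread and changed only genes above 5 CPM. It held no library that stood apart, no sex effect and no GC trend, so these shares need not hold for the real libraries.

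Genes named were Cpa3, Mcpt1, Mcpt2, Kit and Fcer1a, the genes called in each direction and those of next smallest p up to 10 with a mean of at least 1 CPM, leaving out predicted genes, pseudogenes and antigen receptor segments, and, for lists described, called members or the 2 most abundant. Other genes, among them Gm15675 and Gm10060 and most clock and epithelial genes with per-library values, were chosen after their values were seen. The comparison and all lists were chosen with earlier results of these data known. Replicates within a group differed by more than sampling noise (chi-square per degree of freedom from 13.6 to 146). Some genes counted in the totals are not reported here by name.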

Additional observations from a re-analysis of the deposited data

Results flagged for a closer look

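In 178 groups of 5 libraries (89 genes in naive and in day 5 libraries), 17 held a library whose gap to the nearest other, divided by the range of the 5 on the log scale, exceeded Dixon's critical value of 0.71. Chance gives about 1 in 20.

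Cpa3+/+ day 5 replicate 2 stood far above the other day 5 libraries for Mcpt1 (gap ratio 0.808, 397 CPM against 44.6 to 67.9 CPM), Mcpt2 (0.758), Mcpt4 (0.756), Igha (0.751) and Igkc (0.903), and below them for Hmgcs1 (0.885). Cpa3+/+ day 5 replicate 1 stood below the others for the tuft cell genes Trpm5 (0.828, 3.46 CPM against 15.6 to 21.3 CPM) and Avil (0.858) and for Dnajb1 (0.857), and above them for Rai1 (0.832). Cpa3Cre/+ day 5 replicate 3 stood above the others for Ints1 (0.943, 26.6 CPM against 15.8 to 16.3 CPM), AC117239.2 (0.943) and Akirin2 (0.741), and below them for Ccr3 (0.725). Among naive libraries, Cpa3Cre/+ replicate 1 stood below the others for the brush border peptidase Anpep (0.755), Cpa3Cre/+ replicate 2 for Igha (0.843) and Cpa3+/+ replicate 2 for Arntl (0.71).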

How the results depend on the processing

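Counts of called genes depended on the setting, and the cause was not tested. Genes called higher and lower on day 5 than in naive jejunum numbered 3 and 4 in the reported fit. They were 186 and 432 with no filter on low counts, 117 and 169 with DESeq2, 301 and 647 with females only, 0 and 0 for the 10 libraries alone with genotype or with genotype and sex, and 0 to 49 and 0 to 193 without single libraries. The alternatives added after seeing the data gave 202 and 672 without both libraries that stood apart and 0 and 0 with the GC and length correction. The female fit kept Cpa3Cre/+ naive replicate 1 as the sole naive library of its genotype. In the fit without both libraries that stood apart, that sole library was Cpa3Cre/+ naive replicate 2, from a male. The genotype difference gave 867 genes with no filter, 3 with DESeq2, 445 in females and 0 to 2034 without single libraries, the highest without Cpa3Cre/+ naive replicate 2. Immunized against naive gave 578, 35 and 979 under those settings, 0 to 627 without single libraries, 9 without both libraries that stood apart and 2 with the GC and length correction. Day 5 against immunized, 334 in the reported fit, gave 906, 1012 and 82, then 28 to 1305, 2118 and 57.

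Whether replicate numbers pair the samples could not be decided. Deviations of same-numbered naive and day 5 libraries from their group means correlated at −0.083 and −0.116 in Cpa3+/+ and at 0.564 and −0.282 in Cpa3Cre/+. In a group of 2 libraries such deviations are mirror images of each other, so these values are not free to show pairing or its absence. With the replicate block, which kept 1 of the 7 calls (Mcpt1) and lost Mcpt2, Gm15675, Ints1, Wnk2 and Gm10060 among the others, the counts were 2 higher and 0 lower for day 5 against naive, 0 for the genotype difference, 2 for immunized against naive and 149 for day 5 against immunized. 

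Among 89 genes followed, these changed sign. Kit was 0.04 without the sex term and for the 10 libraries with genotype, 0 with the replicate block and with the GC and length correction, −0.18 to 0.32 without single libraries (above 0 without Cpa3+/+ naive replicate 1, Cpa3Cre/+ naive replicate 1 or Cpa3Cre/+ day 5 replicate 3) and 0.48 without both libraries that stood apart. Anpep was −0.12 without the sex term, −0.11 for the 10 libraries with genotype, −0.45 (without Cpa3Cre/+ naive replicate 1) to 0.81 without single libraries and −0.62 without both. Igha was −0.14 (without Cpa3+/+ day 5 replicate 2) to 0.98 without single libraries. With the GC and length correction the histone methyltransferase genes Kmt2b and Setd1b were at 0.06 and 0.20. Mcpt1 stayed between 2.56 and 4.05 and Mcpt2 between 2.48 and 4.17 when single libraries were left out, each called in 4 of 10 such fits. Depth limited genes such as Il13 and Retnlb, with few counts in naive libraries.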

Other observations

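Red blood cell transcripts had negative values in all 5 tested members, with a median of −1.11 and none called by edgeR. Their summed level ran from 46.9 to 207.2 CPM in naive libraries and from 15.96 to 114.9 CPM on day 5. The 13 mitochondrially encoded genes had a median of 0.26 with no negative value. The cytosolic ribosome list had a median of −0.23, and of −0.53 without the libraries that stood apart. None of either list was called by edgeR. Genes of B cell follicles and germinal centres had a net median of 0.09, beside medians of 2.15 for immunized against naive and −2.09 for day 5 against immunized. MHC class II genes gave −0.21, beside medians of 0.56 and −0.72. Without the libraries that stood apart their net median was 0.39, and that of the follicle list was 0.41. Interferon response genes had a median of 0.15 with 18 of 29 positive, and cell cycle genes 0.11 with 15 of 20 positive.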
